A study of Equus caballus with 14 samples.

Results

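The enzymes that carry glucose to lactate in muscle were followed here through 10 genes: HK2, GPI, PFKM, Aldoa, PGK1, Bpgm, Eno1, Eno3, Pkm2 and LDHA. They were found by gene name, ignoring case, among the equine probes of the array and among the mouse probes printed beside them. The names gave 9 of the 384 equine probes, 1 per gene with none for Eno3, and 12 of the 24109 mouse probes, which cover 9 genes and leave out GPI. Muscle of 7 horses with polysaccharide storage myopathy (PSSM), a disease in which abnormal polysaccharide collects in muscle fibers, was compared with a pool of muscle RNA from 6 sound control horses. All were adult Norman Cob horses, biopsied in the gluteus medius, a muscle of the hindquarter. The study describes the PSSM horses as heterozygous or homozygous for a mutation of GYS1, the muscle glycogen synthase, and the control horses as wild type, and describe no treatment. The labels name the PSSM horses 5, 12, 32, 38, 42, 44 and 54 and give no genotype for them. The study's own list gives horses 12, 32, 38, 42 and 54 as heterozygous and horse 44 as homozygous, but has no horse 5. Genotype was therefore not used horse by horse.

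Glycolysis runs in the cytosol. Hexokinase traps glucose as glucose 6-phosphate, phosphofructokinase sets the pace, aldolase splits the sugar, and phosphoglycerate kinase and pyruvate kinase make ATP before lactate dehydrogenase restores NAD+ by turning pyruvate into lactate. Fast-twitch fibers, which work in bursts, carry far more of most, though not all, of these enzymes than slow-twitch fibers. Sugar from glycogen enters the same route at glucose 6-phosphate, without the hexokinase step. In humans, loss of PFKM is itself a glycogen storage disease of muscle.

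Each PSSM muscle was hybridized against the pool on 2 two-color microarrays with the Cy3 and Cy5 dyes swapped, 14 microarrays in all. Values are log2 ratios of PSSM over control, where 0 means equal levels, and each horse's 2 microarrays were averaged, so that n counts horses and SD is the spread between horses. The pool counts as 1 control sample, and differences between control horses enter no error. Ratios say how far a muscle differed from the pool and nothing of how abundant a transcript is. All 9 equine probes of the enzymes had a value on every microarray, 126 values, none of them with a control signal at the bottom of its scale. Among the mouse probes, that of Pkm2 gave no value, and that of Hk2 and one of the 2 for Eno1 gave 1 value each, which left 9 probes of 7 genes with values from at least 5 horses. Over all equine probes, a horse's 2 microarrays correlated with a median r of 0.48 (-0.22 to 0.63, 7 pairs), below the 0.58 (0.25 to 0.83, 42 pairs) seen between horses whose RNA carried the same dye. The Cy5 microarray of horse 54 (the one with its muscle RNA in that dye) was left out in 1 alternative. On the equine Eno1 probe it had -0.49, against 0.29 on the Cy3 microarray of that horse. Calls that change without it are given both ways.

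None of the 9 equine probes passed the test against the control pool (limma with Benjamini-Hochberg adjustment over the 361 equine probes tested, adjusted p under 0.05), whereas 88 of the 361, or 24.4%, passed over the whole set. The count without adjustment was 1 of 9, for Eno1. Run on the same values, the methods' t-test gave 0 of 9 with and without adjustment. The study itself lists ENO1 and PKM2 as significantly modulated, at ratios close to the 1.39 and 0.688 found here for Eno1 and Pkm2. The cause of this difference in calls was not tested. Mean log2 ratios lay above 0 for 7 of the enzymes and below 0 for Bpgm and Pkm2, with a median of 0.15 against -0.08 for all equine probes tested. The muscles of the 7 horses did not lie close together, however. The SD between horses had a median of 0.61 over the 9 enzymes and 0.33 over all equine probes tested.

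HK2 is the hexokinase that insulin and exercise induce in muscle. Its log2 ratio was 0.06 in horse 5, 0.23 in horse 12, -0.38 in horse 32, 0.47 in horse 38, -0.10 in horse 42, 0.98 in horse 44 and -0.50 in horse 54. Horse 44 stood highest, and the horses fell on both sides of 0. Horse 54 had -0.08 on its Cy3 and -0.92 on its Cy5 microarray. The mean was 0.11 ± 0.51 (SD, n = 7), a ratio of 1.08 with a 95% interval of 0.823 to 1.41 (limma, adjusted p = 0.67).

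GPI, glucose-6-phosphate isomerase, makes fructose 6-phosphate from glucose 6-phosphate, the compound at which sugar from glycogen joins that from blood glucose. Its log2 ratio was -0.29 in horse 5, -0.65 in horse 12, 0.35 in horse 32, 1.11 in horse 38, 0.80 in horse 42, 0.17 in horse 44 and 0.54 in horse 54. Horses 5 and 12 were below the pool and the other 5 above it. The mean was 0.29 ± 0.61 (SD, n = 7), a ratio of 1.22 with an interval of 0.894 to 1.67 (limma, adjusted p = 0.318).

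PFKM is the muscle subunit of phosphofructokinase, the step that commits sugar to glycolysis. On the equine probe its log2 ratio was -0.97 in horse 5, -0.59 in horse 12, 0.61 in horse 32, 0.97 in horse 38, 0.77 in horse 42, -0.15 in horse 44 and 0.40 in horse 54. The distance between horse 5 and horse 38 was 3.82-fold, while the mean over horses was only 0.15 ± 0.73 (SD, n = 7; ratio 1.11, interval 0.766 to 1.6; limma, adjusted p = 0.666).

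Aldoa, the muscle aldolase, had log2 ratios of -0.38, -0.56, -0.08, 0.41, 0.87, -0.03 and 0.05 in horses 5, 12, 32, 38, 42, 44 and 54. Its mean was 0.04 ± 0.48 (SD, n = 7; limma, adjusted p = 0.875). This mean covers opposite values of the 2 dye orientations, which are described further on.

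PGK1, phosphoglycerate kinase, carries out the first step that yields ATP. Its log2 ratio was -1.11 in horse 5, -0.62 in horse 12, 0.48 in horse 32, 0.94 in horse 38, 1.02 in horse 42, -0.10 in horse 44 and 0.57 in horse 54. As for PFKM, horses 5 and 12 were lowest and horses 38 and 42 highest. Horse 42 and horse 5 were 4.38-fold apart, around a mean of 0.17 ± 0.81 (SD, n = 7; ratio 1.13, interval 0.752 to 1.68; limma, adjusted p = 0.648).

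Bpgm, bisphosphoglycerate mutase, makes 2,3-bisphosphoglycerate, the compound that loosens the hold of hemoglobin on oxygen in red cells, on a side path beside PGK1. Its values were the closest together of the 9 equine probes, with a lowest value of -0.46 in horse 44 and a highest of 0.17 in horse 42, at a mean of -0.10 ± 0.24 (SD, n = 7; limma, adjusted p = 0.511).

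Eno1, the enolase found in most tissues, had log2 ratios of 0.30 in horse 5, 0.17 in horse 12, 0.14 in horse 32, 0.99 in horse 38, 0.38 in horse 42, 1.43 in horse 44 and -0.10 in horse 54. It was above the pool in 6 of 7 horses, most of all in horse 44, and had the highest mean of the 9, 0.47 ± 0.54 (SD, n = 7; ratio 1.39, interval 1.05 to 1.84). It missed the threshold (limma, adjusted p = 0.0868; exact two-sided sign-flip p = 0.0312, where 0.0156 is the smallest that 7 horses allow). Without the Cy5 microarray of horse 54, that horse was above the pool too, at 0.29, and the mean of 0.53 passed (limma, adjusted p = 0.0429). That microarray was left out after the data were seen, and its low Eno1 value goes with it, so this pass is no independent support. Over all alternatives for this probe the adjusted p lay between 0.0355 and 0.195, and 3 of 19 passed, this one included.

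Pkm2 is the symbol under which the array lists the gene of muscle pyruvate kinase, the last ATP-yielding step, whose splice forms could not be told apart here. Its log2 ratio was -1.31 in horse 5, -0.74 in horse 12, 0.02 in horse 32, 0.65 in horse 38, -0.13 in horse 42, -1.39 in horse 44 and -0.87 in horse 54. It was below the pool in 5 of 7 horses, at a mean of -0.54 ± 0.75 (SD, n = 7; ratio 0.688, interval 0.472 to 1.0; limma, adjusted p = 0.134; exact two-sided sign-flip p = 0.0938). Leaving out horse 38 changed that call, with a mean of -0.74 (limma, adjusted p = 0.0422), against adjusted p-values up to 0.289 over the 19 alternatives.

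LDHA, the muscle subunit of lactate dehydrogenase, had log2 ratios of -0.86 in horse 5, -0.73 in horse 12, 0.44 in horse 32, 1.15 in horse 38, 1.23 in horse 42, 0.10 in horse 44 and 0.72 in horse 54. As in the probes of PFKM and PGK1, horses 5 and 12 were lowest and horses 38 and 42 highest on these horse means. The dye orientations lay far apart, and only 4 of 7 horses had the same sign in both. With PSSM muscle in Cy3 alone, horse 32 was highest, at 1.98. The mean was 0.29 ± 0.84 (SD, n = 7; ratio 1.22, interval 0.805 to 1.86; limma, adjusted p = 0.459).

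**Figure D1:**
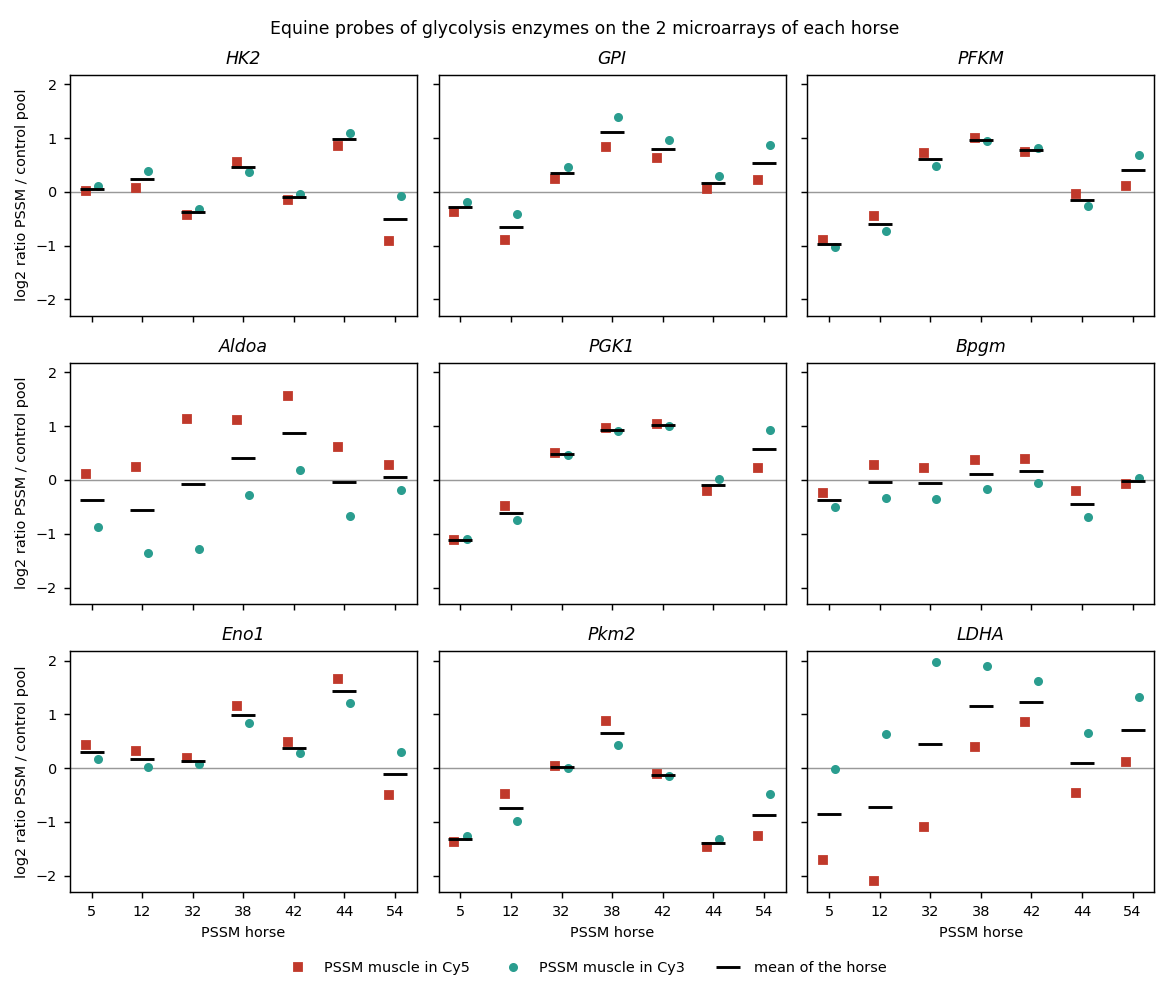
Log2 ratio of PSSM over the control pool (vertical axis) for the equine probe of each of the 9 enzymes in the 7 horses (horizontal axis). Squares are microarrays with PSSM muscle in Cy5, circles those with PSSM muscle in Cy3 and bars the mean of a horse. PFKM and PGK1 lie below 0 in horses 5 and 12 and above 0 in horses 32, 38, 42 and 54 in both orientations, while the orientations of Aldoa and LDHA lie far apart.

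The horses differed from each other by more than their 2 microarrays did. In a limma F test across horses on single microarrays with a dye term, 7 of the 9 equine probes passed, against 90 of the 299 equine probes tested (30.1%). The error of this test is the technical spread between the microarrays of a horse. PGK1 had the highest F (22.6, adjusted p = 0.000291), followed by PFKM (19.1, adjusted p = 0.00041), GPI (17.8, adjusted p = 0.000526) and then Pkm2 (adjusted p = 0.00148). HK2 (adjusted p = 0.00616), Eno1 (0.00953) and LDHA (0.0186) passed as well, and Aldoa (0.0738) and Bpgm (0.206) did not. For HK2 and Eno1 the call rested on horse 44, without which their adjusted p was 0.081 and 0.118. LDHA was no longer called without horse 5 (adjusted p = 0.0583) or without horse 38 (0.0541). PFKM, PGK1, GPI and Pkm2 passed whichever horse was left out, and also with no dye term in the fit. Without the Cy5 microarray of horse 54, Aldoa passed too (adjusted p = 0.0415).

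PFKM, PGK1, GPI and LDHA shared one order of horses. PFKM and PGK1 had r = 0.99 (Spearman's rho 0.93) over the 7 horses, PGK1 and LDHA r = 0.99 (rho 1.0), GPI and LDHA r = 0.96 (rho 0.93) and GPI and PFKM r = 0.92 (rho 0.93). Without the 2 horses farthest from the median of the first gene, these correlations were 0.94, 0.97, 0.998 and 0.94. Within the microarrays with PSSM muscle in Cy5 they were 0.97, 0.82, 0.91 and 0.87, and within those in Cy3 0.99, 0.87, 0.79 and 0.94. Aldoa followed the same order on the horse means, with r = 0.91 to LDHA (rho 0.93), but with 0.68 in the Cy5 and 0.33 in the Cy3 orientation. All such correlations are descriptions over 7 horses, in which both probes share the microarrays and the control pool. Of the 36 pairs of equine enzyme probes 8 reached r of at least 0.9, compared with 1.02% of the 60031 pairs among the 347 equine probes measured in all 7 horses. The median r was 0.67 over the 36 pairs and 0.05 over all pairs, and centring each microarray on the equine probes left PFKM and PGK1 at 0.99.

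HK2 and Eno1 followed another order. They correlated with each other at r = 0.92 (rho 0.86), and at 0.71 without horses 44 and 54, but HK2 had r = -0.23 with PGK1 and Eno1 had r = 0.07 with PGK1. Pkm2 was nearer to the first order, with r = 0.81 to PFKM (rho 0.79), 0.74 to PGK1, 0.69 to LDHA and 0.68 to GPI, and with r = -0.20 to HK2 and -0.01 to Eno1. It was highest in horse 38 and lowest in horse 44, where Eno1 and HK2 were highest. In horse 38 all 9 enzymes lay above the pool, with a median of 0.94, although the median over all equine probes tested was -0.06 in that horse. In horses 5 and 12, 7 of 9 lay below it, with medians of -0.38 and -0.59, against 0.00 and -0.13 over all equine probes.

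Some markers of muscle fibers moved with the first pattern and others did not. The slow-fiber and fast-fiber genes named here were picked from the muscle fiber markers after their values were seen. Myh7 (the slow myosin heavy chain) had log2 ratios of 0.45, 0.87, 0.34, -1.79, 0.16, -0.25 and 0.15 in horses 5, 12, 32, 38, 42, 44 and 54. Tnnc1, troponin C of slow and cardiac muscle, had 0.61, 1.01, 0.48, -2.10, -0.68, -0.07 and -0.51, and Tnnt1, slow troponin T, had 0.53, 0.63, 0.12, -2.55, -0.21, -0.50 and -0.09. All 3 were highest in horses 5 and 12 and lowest in horse 38, while Myh7 was at 0.16 in horse 42, where PGK1 and LDHA were highest. The probe of Tnni1, slow troponin I, was flat, between -0.25 and 0.09. Actn3, an actinin of fast fibers, was at -0.53 and -0.80 in horses 5 and 12, at 0.33 and 0.61 in horses 38 and 42 and at -0.71 in horse 44. Casq1, another gene of the fast-fiber list, was at -0.23 and 0.18 in horses 5 and 12 and at 1.27 and 1.07 in horses 38 and 42. In horse 44 it was at 0.76. Tnnt3 and Tnnc2 did not follow Actn3. Tnnt3, fast troponin T, was at -0.23 and -0.36 in horses 5 and 12 but also at -0.11 in horses 38 and 42, and was lowest in horses 44 (-0.82) and 54 (-0.72). Tnnc2, fast troponin C, was at -0.02 in horse 5, -0.17 in horse 42 and -0.84 in horse 54. Myh4, of the fast-fiber list, had values from 4 horses only, with -0.57 in horse 5 and 0.43 in horse 12. The equine probe of TPM1, a tropomyosin of striated muscle, had -0.63 and -0.52 in horses 5 and 12 and 0.96 in horse 38. Equine RYR1 had -1.20 and -1.38 in horses 5 and 12, but also -1.03 in horse 32 and -0.38 in horse 38. Equine ATP2A1 was the 1 of 8 equine fiber probes called against the pool (-0.68, limma, adjusted p = 0.0112). It was at -0.89 in horse 38 and -0.13 in horse 32. Myh7 (limma F across horses, adjusted p = 0.000439), Tnnc1 (0.000295), Actn3 (0.0353), Casq1 (0.0263), Tnnt3 (0.0298), TPM1 (0.00567) and RYR1 (0.00394) differed between horses, and ATP2A1 (0.242) did not. Over the whole marker list, 6 of 12 mouse probes and 2 of 8 equine probes of muscle fiber genes did, beside 12.7% of all mouse and 30.1% of all equine probes. The part of fiber type in the enzyme values was not tested, and in whole muscle fewer fibers of a type and less RNA per fiber cannot be told apart.

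Some connective tissue and leukocyte markers were highest in horse 44, as Eno1 and HK2 were. LUM (lumican, of the matrix) had a log2 ratio of 4.30 in horse 44 and between 0.01 and 1.99 in the other horses. CTSS (cathepsin S, of macrophages) had 5.18 in horse 44 and between -0.20 and 2.57 in the others, and ITGB2 (an integrin of leukocytes) 1.96 against 0.11 to 1.05. The 4 fibroblast and matrix probes had a median of 2.30 in horse 44 and of -0.15 to 0.68 in the others, and the 9 macrophage and granulocyte probes tested had 0.73 in horse 44 and -0.21 to 0.08 in the others. CD14, FCGR3A and CSF1R, from the macrophage and granulocyte list, were at 0.50, 0.78 and 1.11 in horse 44. Other leukocyte probes were not high there, with TREM1 at -0.42, FGR at -0.33 and NCF1 at 0.05. Their part in the Eno1 and HK2 values was not tested.

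**Figure D2:**
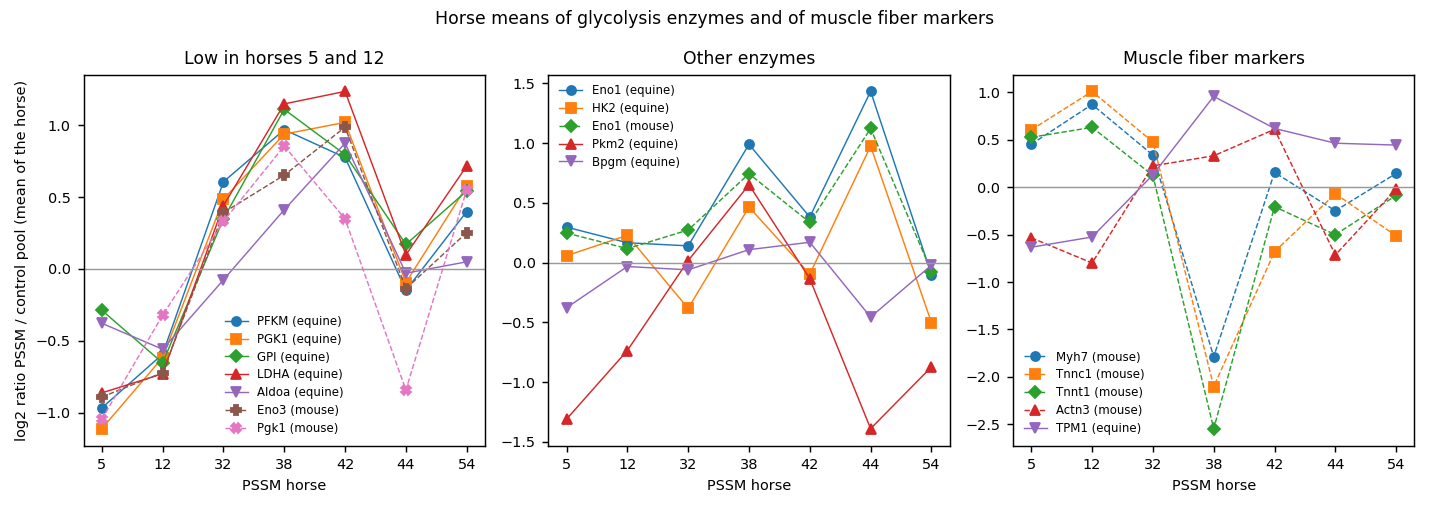
Horse means of log2 ratios of PSSM over the control pool (vertical axes, with their own ranges) in the 7 horses, for enzymes low in horses 5 and 12 (left), the other enzymes (middle) and muscle fiber markers (right). Solid lines are equine and dashed lines mouse probes, and lines only join the points of a probe. PFKM, PGK1, GPI and LDHA run together, Eno1 and HK2 peak in horse 44, and Myh7, Tnnc1 and Tnnt1 are lowest in horse 38. Pkm2, drawn in the middle, is low in horses 5 and 12 too, at -1.31 and -0.74.

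The mouse probes read the same RNA through sequences of another species. None of the 9 mouse probes tested passed against the control pool, where 237 of the 13067 mouse probes tested, or 1.81%, passed (limma with Benjamini-Hochberg adjustment over the mouse probes). Without adjustment 3 of the 9 were under 0.05, those of Pfkm, Bpgm and Eno1, and 3 of 9 were in the methods' t-test. Their median log2 ratio was 0.01, against -0.01 over all mouse probes tested. Between horses, 3 of 6 mouse probes passed the F test, against 747 of 5890 (12.7%): one of Eno3 (adjusted p = 0.00672), Pfkm (0.0447) and Eno1 (0.0473). Eno3 passed whichever horse was left out. Pfkm did not pass without horse 5, 12, 32, 38, 42 or 44 (adjusted p between 0.0699 and 0.139), nor Eno1 without horse 5, 12, 38, 42 or 44 (0.0606 to 0.342).

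Eno3, the enolase of muscle fibers, was read by mouse probes alone, 3 of them. The probe whose ID ends in 1282 had log2 ratios of -0.89 in horse 5, -0.72 in horse 12, 0.39 in horse 32, 0.65 in horse 38, 0.99 in horse 42, -0.14 in horse 44 and 0.25 in horse 54. This was the order of the equine PFKM, PGK1 and LDHA probes, with r = 0.97, 0.98 and 0.98 (rho 0.96 for each), and its r with equine Eno1 was 0.10. The probe ending in 281 spread over a narrower range, from -0.46 in horse 12 to 0.31 in horse 38, and had r = 0.62 with PGK1 (rho 0.71). The probe ending in 10 had values from 5 horses on 6 microarrays, of which horse 44 had -1.34 and the other 4 lay between -0.26 and 0.01. The 3 means were 0.08 ± 0.70, 0.01 ± 0.24 and -0.33 ± 0.58 (SD, n = 7, 7 and 5), with adjusted p-values of 0.875, 0.981 and 0.433 in limma.

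For 6 enzymes a mouse and an equine probe could be set against each other in every horse. None of the 6 passed (limma on mouse minus equine probe, adjusted over the 177 genes with both), whereas 17 of the 177, or 9.6%, did. Eno1 was close on both. Its mouse probe with values from all horses had a mean of 0.40 and its equine probe 0.47, a difference of -0.08 ± 0.15 (SD, n = 7; interval -0.30 to 0.15; limma with every mouse probe kept apart, adjusted p = 0.637), and the 2 probes ordered the horses alike (r = 0.99, rho 0.89). On the mouse probe horse 44 had 1.12, horse 38 had 0.74 and the other 5 between -0.08 and 0.34. Averaging in the mouse probe with a single value, of -6.64 in horse 54 at the limit of the table, gave a difference of -0.55 with an interval of -1.42 to 0.33.

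Pgk1 also kept its order, with log2 ratios on the mouse probe of -1.05, -0.32, 0.33, 0.85, 0.35, -0.84 and 0.55 in horses 5, 12, 32, 38, 42, 44 and 54 (r = 0.88 to the equine probe, rho 0.86). The mouse value of horse 38 came from its Cy3 microarray alone. This probe read higher in that orientation, with a mean of 0.35 in Cy3 and -0.59 in Cy5, so the top place of horse 38 rests on 1 orientation. Its means were -0.02 on the mouse and 0.17 on the equine probe, a difference of -0.19 ± 0.38 (SD, n = 7; interval -0.52 to 0.14; limma, adjusted p = 0.418). Horse 44 lay lower on the mouse probe than on the equine one, by the greatest distance of the 7 horses. Aldoa had means of 0.17 on the mouse and 0.04 on the equine probe, a difference of 0.12 ± 0.31 (SD, n = 7; interval -0.17 to 0.42), and r = 0.84 over horses (rho 0.64). Within orientations that r was 0.38 in Cy5 and 0.82 in Cy3.

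Pfkm and Ldha did not keep it. On the horse means, the mouse probe of Pfkm was below the pool in 7 of 7 horses, with log2 ratios of -0.29, -0.10, -0.16, -0.91, -0.55, -1.07 and -0.87, lowest in horse 44 and near 0 in horses 12 and 32. Its mean was -0.56 ± 0.39 (SD, n = 7; ratio 0.677, interval 0.548 to 0.837; limma, adjusted p = 0.0743; exact two-sided sign-flip p = 0.0156, the smallest that 7 horses allow). The adjusted p lay between 0.0072 and 0.179 over 19 alternatives, of which 3 passed. The sign was the same on both microarrays in 5 of 7 horses, and horses 12 and 32 had 0.04 and 0.02 in Cy3. The mean was -0.25 with PSSM muscle in Cy3 (limma, adjusted p = 0.131) and -0.87 with it in Cy5 (0.0131). Against the mean of 0.15 on the equine probe the difference was -0.71 ± 0.95 (SD, n = 7; interval -1.41 to -0.01; limma, adjusted p = 0.174), and r between the probes was -0.38 (rho -0.36). The mouse probe of Ldha stayed between -0.13 and 0.16 in every horse, at a mean of -0.05 ± 0.10, while the equine LDHA probe spread over 4.28-fold. The means differed by -0.34 ± 0.89 (SD, n = 7; interval -0.995 to 0.31; limma, adjusted p = 0.454). Pfkm and Ldha are named for the same enzymes on both sets, but the sequences of the probes were not analysed here.

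Bpgm was higher on the mouse probe than on the equine probe in 7 of 7 horses. The means were 0.35 ± 0.31 on the mouse and -0.10 ± 0.24 on the equine probe, a difference of 0.44 ± 0.30 (SD, n = 7; interval 0.16 to 0.73; limma, adjusted p = 0.0651; exact two-sided sign-flip p = 0.0156). Only 10 of the 14 microarrays gave a value on the mouse probe, and in 3 of these the control signal was at the bottom of its scale.

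**Figure D3:**
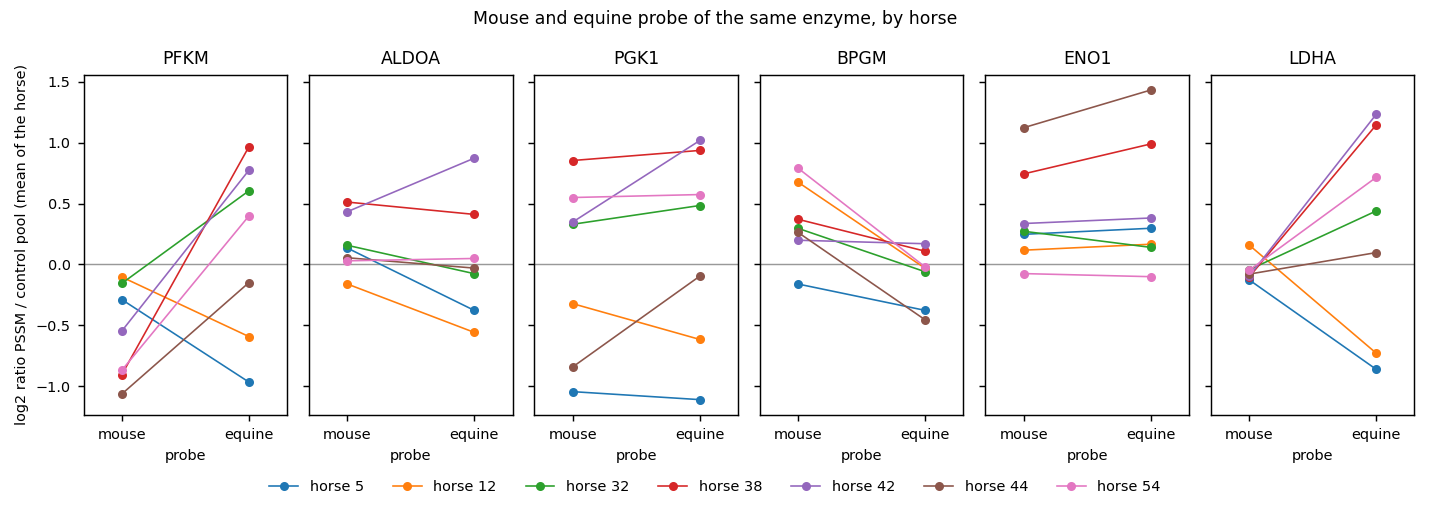
Log2 ratio of PSSM over the control pool (vertical axis) on the mouse probe (left of each panel) and the equine probe (right) of 6 enzymes, with 1 line per horse and horse means as points. Lines of ENO1 run side by side, those of PFKM and LDHA fan out towards the equine probe.

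The dye had a large part in some of these ratios. A difference between the orientations (PSSM in Cy5 minus PSSM in Cy3, limma) passed in 4 of the 9 equine probes, against 188 of the 342 tested (55%), and in 3 of 7 mouse probes, against 3557 of 9238 (38.5%). LDHA had a mean of -0.57 with PSSM muscle in Cy5 and 1.16 with it in Cy3, a difference of -1.73 (adjusted p = 0.00048). Aldoa went the other way, with 0.72 in Cy5 and -0.64 in Cy3, a difference of 1.36 (adjusted p = 0.000371), and only 1 of 7 horses had the same sign on both microarrays. Taken alone, the Cy3 orientation would call LDHA higher (limma, adjusted p = 0.00403) and Aldoa lower (0.0208), and the Cy5 orientation would call Aldoa higher (0.0166). GPI (-0.38) and Bpgm (0.40) had smaller differences that passed, and among the mouse probes Pgk1 (-0.85), Pfkm (-0.62) and Eno1 (-0.61). PFKM (0.04), PGK1 (-0.08), Pkm2 (0.00), Eno1 (0.12) and HK2 (-0.22) did not pass on the equine probes. PFKM, GPI, Pkm2 and HK2 kept their sign between the 2 microarrays in 7 of 7 horses, and PGK1 and Eno1 in 6 of 7.

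**Figure D4:**
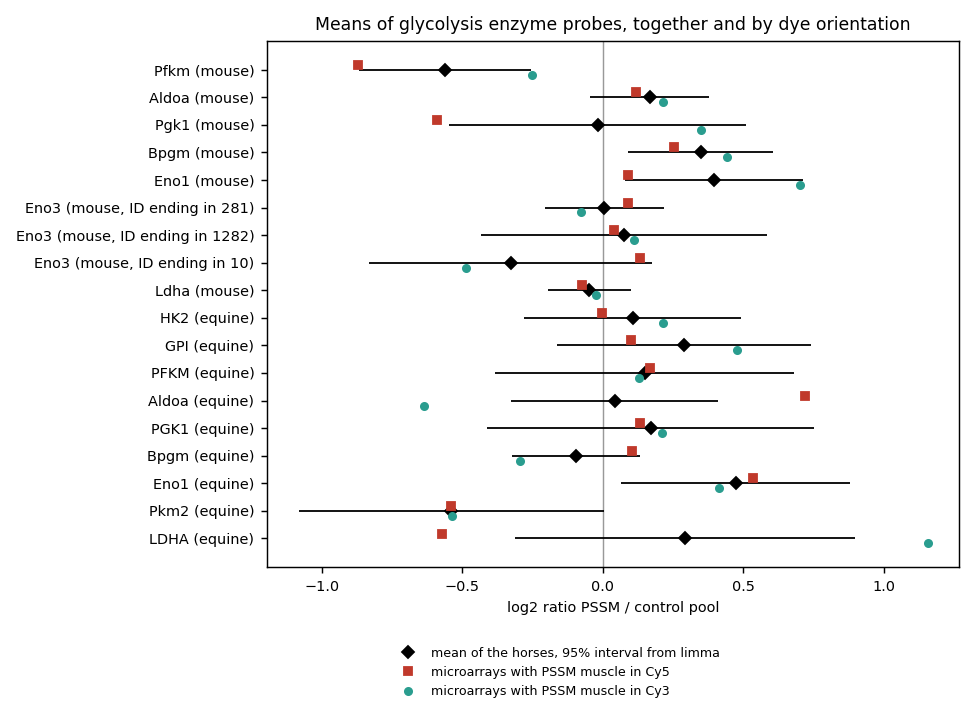
Mean log2 ratio of PSSM over the control pool (horizontal axis) of the 9 mouse and 9 equine probes tested. Diamonds with lines are means over horses with 95% intervals from limma, squares the mean of microarrays with PSSM muscle in Cy5 and circles that of microarrays with it in Cy3. The equine LDHA and Aldoa probes have the widest gaps between orientations, -1.73 and 1.36.

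Neighbors of the 10 enzymes in the pathway were tested against the pool in the same way, where 24.4% of all equine probes passed. Of the 10 equine probes for glucose entry and glycogen, 1 was higher and 1 lower, where 4.43% and 19.9% of all equine probes were. GSK3B, a kinase that restrains glycogen synthase, was higher (0.62 ± 0.23, limma, adjusted p = 0.00227), and SLC2A2, a glucose transporter known from liver and pancreas, was lower (-1.50 ± 0.66, adjusted p = 0.00227). The median of the 10 was -0.05, beside -0.08 for all equine probes. The 7 probes for NADH shuttles and the mitochondrial use of pyruvate had a median of -0.15 and none passed. Idh2, mitochondrial isocitrate dehydrogenase, had -0.26 ± 0.20 and was below the pool in 7 of 7 horses (limma, adjusted p = 0.068), and Mdh2, mitochondrial malate dehydrogenase, had -0.21 ± 0.37 (adjusted p = 0.29). Of the 8 regulators 1 was higher and 1 lower, at a median of 0.02, beside the same shares of 4.43% and 19.9%. HIF1A, the oxygen-sensitive factor that drives transcription of glycolysis genes, was higher (0.78 ± 0.42, limma, adjusted p = 0.00595). VEGF, a vessel growth factor, was lower (-1.46 ± 0.46, adjusted p = 0.00164). Counts this near the shares do not set the lists apart from the other equine probes.

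None of the 11 tested mouse probes for other glycolysis isoforms and steps passed against the pool, at a median of 0.08. Only 1.81% of all mouse probes passed, so no call among so few probes is no sign of unchanged levels. The greatest means were those of Ldhb, the heart-type subunit of lactate dehydrogenase (0.76 ± 0.91, limma, adjusted p = 0.204), and Pgam2, muscle phosphoglycerate mutase (-0.71 ± 0.58, adjusted p = 0.096). Between horses 4 of 10 passed, Gapdh, Ldhb, Ldhc and Pgam2, beside 12.7% of all mouse probes. Ldhb had log2 ratios of 1.73, 1.15, 0.67, -1.15, 1.08, 0.67 and 1.14 in horses 5, 12, 32, 38, 42, 44 and 54 (F across horses, adjusted p = 0.000746), lowest in horse 38, where equine LDHA was at 1.15. Gapdh, the step before PGK1, had -0.73, -0.10, 0.77, 0.57, -0.52, -0.64 and -0.44 (adjusted p = 0.00536), and was below 0 in horse 42, where PGK1 was highest. Of the 10 tested switches, which turn glycolysis or the use of pyruvate up and down, none passed against the pool, beside the same 1.81%. Their median was -0.07. The greatest means were those of Slc16a3, a carrier that lets lactate out of fast fibers (-0.59 ± 1.19, adjusted p = 0.418), and Pfkfb1, which makes and removes an activator of phosphofructokinase (-0.51 ± 0.41, adjusted p = 0.101). Slc16a3 was at -2.57 in horse 5 and -1.97 in horse 44 and between -0.33 and 0.39 in the other 5 (F across horses, adjusted p = 0.00055).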

How the data were processed

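Spots were quantified in GenePix Pro and Lowess-normalized in GeneSpring, spot by spot and for each microarray, and the authors deposited natural log ratios of Cy5 over Cy3. The natural log was read from the ends of the columns, at ratios down to 0.01. The background correction and the rule behind empty cells are not given in the sources used here, and the number of microarrays limits the precision. Names of equine probes came from the study's probe list, which matched 384 of 384, and those of mouse probes from the platform annotation, which gives 13430 of 24109 a single symbol.

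Values were turned by the dyes of the labels to PSSM over control, put on the log2 scale and averaged over the microarrays of each horse. The test against 0 used limma 3.58.1 in R 4.3.3 (lmFit, then eBayes) for probes covered by at least 5 horses, with Benjamini-Hochberg adjustment over all equine probes and, by themselves, over all mouse probes. Mouse minus equine and Cy5 minus Cy3 values were tested in the same way. Differences between horses were tested with an F test on single microarrays with a dye term, over probes with a value on all of them. Exact sign-flip tests ran over horses. A control signal at its lowest level was recognized by a ratio that is whole within 0.0002 after multiplication by 10. Fits were tested on simulated data. Python 3.11.15 with pandas 2.3.3, numpy 2.4.6 and matplotlib 3.10.9 served for the rest, and statmod 1.5.0 for the block fit.

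All enzymes were described on both probe sets. From each neighboring list every gene that passed is named, up to 4, or else the 2 with the greatest means, and Gapdh, Ldhc and the horse values of Ldhb and Slc16a3 were chosen after they were seen. The members and lists were chosen with earlier results of these data known. Alternatives were the methods' t-test, robust limma, single microarrays with the horse as a random block, either orientation alone, 2 centrings, 2 filters, adjustment over both probe sets, leaving out low control values, and leaving out each horse. Leaving out the microarray of horse 54 in Cy5, and leaving out each horse in the F test, were chosen after seeing the data.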

Additional observations from a re-analysis of the deposited data

Results flagged for a closer look

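Of the 18 enzyme probes with values from at least 5 horses, 2 had a horse that stood apart from the rest of its group, a gap to the nearest horse larger than Dixon's limit for that number of horses. Chance marks about 1 in 20 groups.

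On the Eno3 mouse probe whose ID ends in 10, horse 44 had a log2 ratio of -1.34 against a range of -0.26 to 0.01 in the other 4 horses with a value. The gap took up 0.795 of the whole range (limit 0.71 for 5 horses), and the value comes from a single microarray. On the Ldha mouse probe, horse 12 had 0.16 against -0.13 to -0.04 in the other 6 horses, a gap of 0.715 of the range (limit 0.568 for 7 horses). Its 2 microarrays had 0.39 with PSSM muscle in Cy5 and -0.06 with it in Cy3.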

How the results depend on the processing

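The 24 single results (18 probe means and 6 mouse minus equine differences) were recomputed under 19 alternatives, which gave 423 values, of which 382 kept direction and side of the threshold, 17 passed it anew with the same sign and 24 changed sign, 2 of these past the threshold (equine Aldoa in Cy3 alone and the ALDOA difference in Cy5 alone). With PSSM muscle in Cy3 alone, 1 equine probe was called higher and 1 lower, 2 mouse probes higher, and 3 genes differed between probe species. The sign changed for Aldoa (-0.64), mouse Pgk1 (0.35), the Eno3 probe ending in 281 (-0.0773) and the PGK1 difference (0.14). In Cy5 alone, 1 equine probe was called higher, 1 mouse probe lower, and 4 genes differed. The sign changed for HK2 (-0.0019), Bpgm (0.10), LDHA (-0.57), the ALDOA difference (-0.60) and the LDHA difference (0.50). Centring on the equine probes, which moves the equine median by 0.131, called 1 equine probe higher (Eno1), and turned mouse Pgk1 to 0.11, Bpgm to 0.0286 and mouse Ldha to 0.0757. Centring on all probes turned mouse Pgk1 to 0.0056. With the horse as a random block, 1 equine probe was called higher (Eno1) and 1 mouse probe lower (Pfkm). With only probes on every microarray, 1 mouse probe was called lower (Pfkm). Without the microarray of horse 54 in Cy5, 1 equine probe was called higher (Eno1) and mouse Pgk1 was at 0.0546. With no dye term, 4 equine and 1 mouse probe differed between horses. The F test already used only probes with a value on all microarrays, so that this choice gives no other value. Without 1 horse at a time, 0 to 1 equine probes were called lower (Pkm2 without horse 38), 5 to 8 equine and 1 to 3 mouse probes differed between horses, and the mean of HK2 lay between -0.0384 and 0.21, of Aldoa between -0.0970 and 0.14, of mouse Pgk1 between -0.16 and 0.15 and of the Eno3 probes ending in 281 and 1282 between -0.0456 and 0.0829 and between -0.0757 and 0.24. The cause of these changes was not tested. PSSM horses could not be paired with control horses, because the control RNA was pooled. The replicate numbers mark the dye orientation of a horse's microarrays, and the dye and probe species tests used differences within a horse.

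The pool is 1 control sample, so that no value includes the spread between control horses. With 7 horses and an SD near 0.61, the intervals of the equine means reach up to 0.90 on the log2 scale for LDHA and 0.49 for HK2. Ratios of the Bpgm mouse probe rest in part on low control signals.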
